A study of Homo sapiens with 18 samples.

Results

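The genes of the neurotrophin receptors and ligands NGFR, NTRK2, NTRK3, SORT1, BDNF and NTF3 were examined in human melanoma cell lines overexpressing MAFG or GFP. These 6 genes were chosen by symbol, and each had 1 of the 58870 rows of the count table. With MAFG, NGFR and NTRK2 rose in WM164 and SKMEL28 cells and SORT1 fell in both, NTRK3 and NTF3 rose in WM164 cells from counts at or near 0, and BDNF rose in SKMEL28 cells. None of the 4 genes that could be tested in A375 cells passed the test there. Few genes did in that line, with 0.78% of all tested genes rising and 0.0634% falling.

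Neurotrophins are secreted growth factors of neurons and of cells derived from the neural crest, the embryonic tissue from which melanocytes also come. Each mature neurotrophin acts through a Trk receptor tyrosine kinase, BDNF mainly through the product of NTRK2 and neurotrophin 3, encoded by NTF3, mainly through that of NTRK3. NGFR encodes the low-affinity receptor that binds all of them, and together with sortilin, the product of SORT1, it binds their uncleaved precursors. Sortilin also sorts proteins between the Golgi apparatus, lysosomes and the cell surface. NGFR is widely used as a marker of melanoma cells in a neural crest-like state.

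Total RNA of WM164, SKMEL28 and A375 cells was sequenced. These are established human melanoma lines, grown in RPMI medium with serum, and each overexpressed either MAFG, a small MAF transcription factor, or the control protein GFP. There were 3 libraries in each of the 6 conditions, 18 in all. Per the methods, both proteins were delivered by lentiviral vectors with an EF1α promoter and a blasticidin resistance gene, and MAFG carried a Myc-DDK tag, so MAFG and GFP cells of a line share the vector and differ in its insert. Each line is a single tumour-derived line, and no source states that the 3 libraries of a condition came from separate cultures, so the p-values measure the spread between libraries, which may be technical.

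Library totals ranged from 20122172 to 39025042 counts, with a median of 31061375, and the labels give no batch or date. Replicate libraries of a condition correlated at 0.970 to 0.985 (Pearson's r of log2 CPM, 18 pairs) and libraries of different lines at 0.758 to 0.879 (108 pairs). MAFG itself, the check of the labels, rose from 25.8 ± 2.91 to 53.1 ± 4.59 CPM in WM164 cells (SD, n = 3 libraries; adjusted p = 6.37e-08, edgeR) and from 24.1 ± 3.47 to 37.3 ± 1.54 CPM in SKMEL28 cells (adjusted p = 0.000128, edgeR). CPM is a gene's count scaled by the library's normalized total, and the SD is over the 3 libraries. A375 cells went from 27.0 ± 4.98 to 47.3 ± 9.24 CPM without overlap of the libraries (adjusted p = 0.0655, edgeR). In the deposited TPM values, which are per transcript length, MAFG went from 2.89 ± 0.543 to 24.5 ± 3.34 in WM164 cells. The SKMEL28 values were 3.96 ± 0.641 and 17.0 ± 2.66 TPM, and those of A375 were 4.22 ± 0.291 and 25.2 ± 2.88 TPM. MAFG shares 105 exon bases with SIRT7 on the same strand, where reads may be assigned to neither gene.

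The 6 genes lie on 6 chromosomes of GRCh38. NGFR (ENSG00000064300.9) spans positions 49495293 to 49515008 of chromosome 17, on the plus strand. NTRK2 (ENSG00000148053.16) spans 84668375 to 85095751 of chromosome 9, plus strand, and NTRK3 (ENSG00000140538.16) spans 87859751 to 88256791 of chromosome 15, minus strand. SORT1 (ENSG00000134243.12) lies at 109309568 to 109397918 of chromosome 1, minus strand. The ligand gene BDNF (ENSG00000176697.19) lies at 27654893 to 27722058 of chromosome 11, minus strand, and NTF3 (ENSG00000185652.12) at 5432108 to 5521536 of chromosome 12, plus strand. The labels name a library kit that keeps no strand, the methods a strand-specific kit, and the use of strand in counting is not given in the sources used here, so genes on opposite strands may share reads. NGFR shares 202 exon bases with the antisense gene NGFR-AS1 and 924 with ENSG00000279036, each with at most 1 count in any library. BDNF shares 988 exon bases with BDNF-AS, whose counts are given beside those of BDNF.

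Promoter windows of 300 bases, 250 before and 50 after a transcription start, were taken from RefSeq (GRCh38.p14) for 14 starts of 5 of the 6 genes; NGFR had none. They were searched on both strands for TGANTCA, the core of AP-1 sites, for TGCTGA, the core of the sites bound by MAF proteins, and for CACGTG and CATGTG, the E-box sequences bound by MITF, the melanocyte lineage factor. Of 35116 promoters of the same length, 7.71% held TGANTCA, 17.3% TGCTGA, 7.26% CACGTG and 11.1% CATGTG. The first pair of motifs can overlap by sharing the letters TGA. Among the windows of the 6 genes, 3 of 14 held a match, 1 of 4 for NTRK2, 1 of 5 for BDNF and 1 of 2 for SORT1, and neither the 2 of NTF3 nor the 1 of NTRK3 did. The share of all promoters with any of the motifs was not computed, so 3 of 14 is not read against the single shares. The 250 bases before these 3 starts are shown because they are the only windows with a match, with the matched letters in capitals, 5′ to 3′ on the strand of the gene. They lie at chr9:84701355-84701604 for NTRK2 (CATGTG at -158 from the start), at chr11:27720780-27721029 for BDNF (CATGTG at -86 and CACGTG at -42) and at chr1:109397919-109398168 for SORT1 (TGCTGA on the other strand, read as TCAGCA, at -231). A match is a description of the letters, and counts per gene do not tell which start was used.
NTRK2: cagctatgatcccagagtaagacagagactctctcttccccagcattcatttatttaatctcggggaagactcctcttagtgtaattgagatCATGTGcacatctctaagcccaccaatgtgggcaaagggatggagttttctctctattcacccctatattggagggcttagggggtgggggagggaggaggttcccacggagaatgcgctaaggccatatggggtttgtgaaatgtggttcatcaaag
BDNF: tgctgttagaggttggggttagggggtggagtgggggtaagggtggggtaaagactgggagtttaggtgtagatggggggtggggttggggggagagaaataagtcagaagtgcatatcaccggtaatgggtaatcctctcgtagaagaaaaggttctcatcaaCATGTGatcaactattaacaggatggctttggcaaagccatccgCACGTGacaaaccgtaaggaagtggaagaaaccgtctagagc
SORT1: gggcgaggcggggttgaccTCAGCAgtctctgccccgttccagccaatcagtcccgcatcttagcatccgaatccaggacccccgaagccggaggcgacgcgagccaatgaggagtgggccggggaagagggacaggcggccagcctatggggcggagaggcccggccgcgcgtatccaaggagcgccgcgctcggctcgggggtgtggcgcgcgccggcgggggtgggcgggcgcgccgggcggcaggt

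In WM164 cells, all 6 genes passed the filter on low counts, and 4 rose and 1 fell with MAFG at an adjusted p of 0.05 or less (quasi-likelihood test of edgeR, adjusted over all 15919 tested genes by the Benjamini-Hochberg method). Over all tested genes, 16.2% rose and 15.6% fell. The same 4 genes also had a fold change above 2, which 6.94% of all tested genes reached. The MAFG libraries lay wholly above or below the GFP libraries for 5 of the 6 genes, against 43.4% of tested genes. Of the 4 genes tested in SKMEL28 cells, 3 rose and 1 fell, where 14.6% and 15.3% of 15523 tested genes did so. The 3 that rose exceeded a fold change of 2 (background 4.74%), and the libraries of all 4 tested genes were apart (background 43%). In A375 cells, 0 of 4 tested genes passed in either direction with edgeR or with DESeq2, and 0 had an unadjusted p under 0.05 in edgeR. There 0.78% of 15779 tested genes rose, 0.0634% fell and 0.665% passed with a fold change above 2. Libraries of 1 of the 4 genes, NGFR, did not overlap in A375 cells (background 12.3%). NTRK2, NTRK3 and NTF3 passed the filter in WM164 cells through their MAFG libraries alone and had to be higher there to be tested, so nothing is read from the WM164 counts of rising genes against the background. With at least 10 counts asked of every library, NGFR, BDNF and SORT1 remained to be tested in WM164 cells, and NGFR rose and SORT1 fell.

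**Figure D1:**
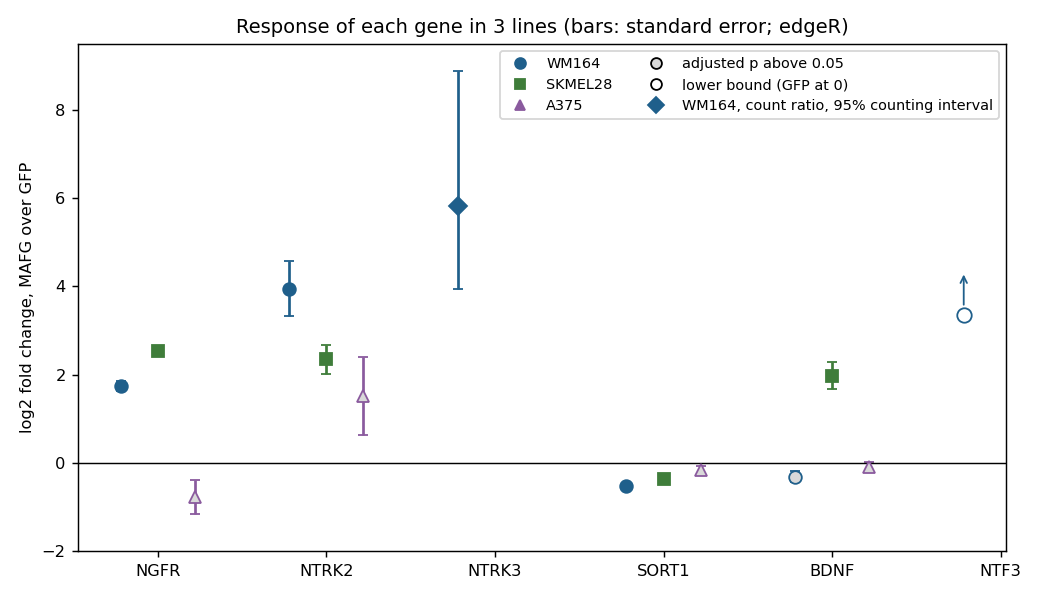
The log2 fold change of MAFG over GFP (vertical axis) is plotted for each of the 6 genes (horizontal axis) in WM164 (circles), SKMEL28 (squares) and A375 cells (triangles), with bars for the standard error of the edgeR fit. Grey symbols missed an adjusted p of 0.05, the diamond is the count ratio of NTRK3 with its 95% counting interval, and the open symbol with an arrow is the lower bound of NTF3, whose GFP libraries had 0 counts. NGFR lies at 1.74 and 2.54 in WM164 and SKMEL28 cells and below 0 in A375 cells.

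The lines were checked against lists of marker genes. The summed level of 7 melanocyte lineage genes was 4695 to 5029 CPM in WM164 GFP libraries and 2638 to 2767 in MAFG libraries, with 5 of 7 genes lower and 0 higher. In SKMEL28 cells it went from a range of 4789 to 5046 CPM to one of 4161 to 4387, with 3 of 7 lower and 1 higher. A375 GFP libraries held 35.3 to 41.6 CPM, with MLANA, TYR and DCT at 0 counts and MITF and SOX10 counted in every library. In its MAFG libraries the sum was 120 to 172 CPM with MLANA and TYR still at 0, and SOX10, a neural crest and melanocyte factor, went from counts of 266, 300 and 411 to 5630, 3855 and 4208. A list of 5 Schwann cell genes, another NGFR-positive neural crest type, summed to 770 to 820 CPM in WM164 GFP and 907 to 912 in MAFG libraries (2 higher, 1 lower of 5). It summed to 500 to 544 and 759 to 801 CPM in SKMEL28 (4 higher, 1 lower of 5) and to 7.45 to 8.78 and 29.0 to 34.6 CPM in A375 cells (1 higher of 4 tested), with none of its genes at 0 in any condition. Neuron markers summed to at most 10.5 CPM in any library, with 2 of 3 tested genes higher in WM164 cells, 0 of 3 changed in A375 and none tested in SKMEL28 cells. A leukocyte list of 4 genes fell in sum from 122 to 138 CPM to 51.5 to 58.0 in WM164 and from 314 to 392 CPM to 226 to 232 in SKMEL28 cells, with 1 of 1 tested gene lower in each and CD3E at 0 in every condition. Fibroblast, keratinocyte and endothelial lists summed to at most 21.3, 69.7 and 1.03 CPM in any library, with KRT1 at 0 in all 6 conditions. The part of these markers in the changes of the neurotrophin genes was not tested, and in bulk libraries fewer cells of a type cannot be told apart from less RNA per cell.

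NGFR, the receptor shared by all neurotrophins, was at 6.64, 6.0 and 5.77 CPM in the 3 WM164 GFP libraries and at 18.3, 20.6 and 22.7 CPM in the MAFG libraries. Every MAFG library was above every GFP library. The log2 fold change, the log2 of the MAFG over the GFP level, was 1.74 (standard error, SE, 0.12, 3.34-fold, adjusted p = 1.76e-09, edgeR). In SKMEL28 cells, NGFR was at 13.8, 12.0 and 9.63 CPM with GFP and at 67.3, 63.0 and 76.0 CPM with MAFG, again without overlap. This was the highest level in the 6 conditions, and the log2 change was 2.54 (SE 0.11, 5.83-fold, adjusted p = 1.58e-10, edgeR). A375 cells had the lowest NGFR, at 1.46, 1.55 and 2.15 CPM with GFP and 1.19, 1.14 and 0.698 CPM with MAFG. Here the MAFG libraries lay below the GFP libraries, with a log2 change of -0.78 (SE 0.39) that missed the threshold (adjusted p = 0.887, edgeR).

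The response of NGFR, its log2 change with MAFG, differed between every pair of lines in a model of all 18 libraries. It was larger in SKMEL28 than in A375 cells by 3.32 (SE 0.27, adjusted p = 4.28e-08, edgeR) and larger in WM164 than in A375 cells by 2.52 (SE 0.27, adjusted p = 1.52e-06, edgeR). The value in WM164 minus that in SKMEL28 cells was -0.80 (SE 0.22, adjusted p = 0.0171, edgeR). The last difference depended on single libraries. Its adjusted p was 0.0525 without the first WM164 GFP library, 0.0543 without the first WM164 MAFG library, 0.0557 without the third SKMEL28 GFP library and 0.0570 without the third SKMEL28 MAFG library (edgeR). Among the 6 genes, 2 responses differed between WM164 and SKMEL28 cells (13.7% of 18767 tested genes), 3 between WM164 and A375 cells (9.21%) and 2 between SKMEL28 and A375 cells (9.51%). These comparisons share libraries and are not independent of each other. NTRK3, 1 of the 3 between WM164 and A375 cells, passed the filter on low counts through its WM164 MAFG libraries alone. That count is therefore not read against the background.

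NTRK2, which encodes the receptor of BDNF, had few reads. In WM164 cells its counts were 0, 3 and 6 in the GFP libraries and 41, 61 and 50 in the MAFG libraries. Each MAFG library was well above each GFP library, with a log2 change of 3.95 (SE 0.62, adjusted p = 8.28e-05, edgeR). NTRK2 passed the filter on low counts in WM164 cells through its MAFG libraries alone and had to be higher there to be tested. The SKMEL28 counts were 24, 11 and 16 with GFP and 95, 67 and 112 with MAFG. These groups were also apart, at a log2 change of 2.35 (SE 0.33, adjusted p = 6.6e-05, edgeR). A375 libraries held 2, 2 and 10 counts with GFP and 9, 13 and 23 with MAFG. The groups overlapped, since the third GFP library reached 10 counts, and the log2 change of 1.51 (SE 0.89) missed the threshold (adjusted p = 0.965, edgeR). No pair of lines differed in the response of NTRK2 by the test of the difference (adjusted p = 0.156 to 0.682, edgeR), and the standard errors of 0.90 to 1.01 on the log2 scale left these differences imprecise.

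NTRK3 and NTF3 encode a receptor and its ligand, and both were counted with MAFG in WM164 cells. The NTRK3 counts were 2, 0 and 0 in the WM164 GFP libraries and 53, 26 and 40 in the MAFG libraries. Those of NTF3 were 0, 0 and 0 with GFP and 29, 34 and 34 with MAFG. Over the summed counts of the condition, NTRK3 was 56.4-fold higher with MAFG, with an exact 95% interval of 15.3 to 471 for counting error alone (adjusted p = 2.14e-05, edgeR). NTF3 was at least 10.2-fold higher against a floor of 3 counts in each GFP library, which is 0.108 CPM (adjusted p = 1.3e-05, edgeR). No GFP library of either gene reached its lowest MAFG library. Both genes passed the filter on low counts in WM164 cells through their MAFG libraries alone and had to be higher there to be tested. In the other lines NTF3 had 0 counts in all 12 libraries, which allows up to 3 counts in each, and could not be tested. NTRK3 had 0, 0 and 4 counts in SKMEL28 GFP, 0, 1 and 0 in SKMEL28 MAFG and 8, 0 and 0 in A375 GFP libraries. It had 0 counts in the 3 A375 MAFG libraries, and NTRK3 could not be tested in either line. The antisense gene NTRK3-AS1 was at 0 in every library.

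The NTRK3 response in WM164 differed from that in A375 cells at an adjusted p of 0.0121 (edgeR), but with groups at the floor its fitted size is not given. This call was lost without the first A375 GFP library, which holds all 8 counts of that line (adjusted p = 1) and with DESeq2 (0.0942). Against SKMEL28 cells the adjusted p was 0.0506 (edgeR), with 0.0417 and 0.0445 without the first WM164 GFP or the first SKMEL28 GFP library, 1 without the third SKMEL28 GFP library and 0.00832 without a filter on low counts. For NTF3, whose counts in SKMEL28 and A375 cells were all 0, the difference could not be fitted.

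SORT1 had the highest mean of the 6 genes per length (TPM) in every condition. In CPM it was at 130, 142 and 132 CPM in WM164 GFP libraries and 90.3, 102 and 86.1 CPM in MAFG libraries, without overlap. The log2 change was -0.54 (SE 0.07, adjusted p = 5.8e-06, edgeR). In deposited TPM the WM164 groups overlapped, at 10.5, 13.6 and 11.9 with GFP and 9.20, 11.2 and 8.76 with MAFG, and the change missed the threshold there (-0.28 on the log2(TPM + 1) scale, adjusted p = 0.201, limma). SKMEL28 GFP libraries had 524, 517 and 485 CPM and MAFG libraries 406, 396 and 385 CPM. The groups were apart at a log2 change of -0.36 (SE 0.06, adjusted p = 0.000129, edgeR). A375 libraries were at 84.8, 75.6 and 77.2 CPM with GFP and 77.0, 68.8 and 67.3 CPM with MAFG, overlapping, with a log2 change of -0.16 (adjusted p = 0.974, edgeR).

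The fall of SORT1 was larger in WM164 than in A375 cells by a difference of -0.38 (SE 0.11, adjusted p = 0.0313, edgeR). It missed the threshold in 6 of the 12 fits that left out 1 library, namely the second or the third WM164 GFP (adjusted p = 0.0898 and 0.0536), the first or the third WM164 MAFG (0.0828 and 0.0995) and the second or the third A375 GFP library (0.0846 and 0.0638). The differences of WM164 from SKMEL28 cells (-0.17, adjusted p = 0.346, edgeR) and of SKMEL28 from A375 cells (-0.21, adjusted p = 0.269, edgeR) did not pass.

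BDNF, the ligand of the NTRK2 receptor, was lowest where it rose. SKMEL28 GFP libraries held 0.666, 0.738 and 0.690 CPM and MAFG libraries 3.0, 2.62 and 2.63 CPM. The groups were apart at a log2 change of 1.98 (SE 0.31, 3.94-fold, adjusted p = 0.000175, edgeR). The antisense gene BDNF-AS had 24, 24 and 28 counts with GFP and 24, 22 and 25 with MAFG in the same libraries, where BDNF had 20, 15 and 20 and then 90, 73 and 70. In WM164 cells, BDNF was at 14.3, 14.9 and 11.2 CPM with GFP and at 11.2, 11.1 and 10.2 CPM with MAFG. The third GFP library lay within the range of the MAFG libraries, and the log2 change of -0.32 (SE 0.12) had an adjusted p of 0.0513 (edgeR). Without that library it was -0.44 (adjusted p = 0.00993, edgeR). WM164 counts of BDNF-AS were 63, 73 and 80 with GFP and 103, 86 and 119 with MAFG (adjusted p = 0.17, edgeR). A375 cells had the most BDNF, 38.0, 43.7 and 38.6 CPM with GFP and 35.8, 38.6 and 39 CPM with MAFG. These groups overlapped (log2 change -0.09, adjusted p = 0.997, edgeR).

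The BDNF response in WM164 minus that in SKMEL28 cells was -2.30 (SE 0.21, adjusted p = 2.03e-07, edgeR), and that in SKMEL28 minus A375 cells was 2.07 (SE 0.21, adjusted p = 9.03e-07, edgeR). WM164 and A375 cells did not differ by this test (-0.23, adjusted p = 0.442, edgeR). On the log2(TPM + 1) scale, whose pseudocount exceeds the SKMEL28 levels of 0.150 and 0.513 TPM, the first 2 differences were -0.48 and 0.56 and missed the threshold (adjusted p = 0.1 and 0.123, limma).

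**Figure D2:**
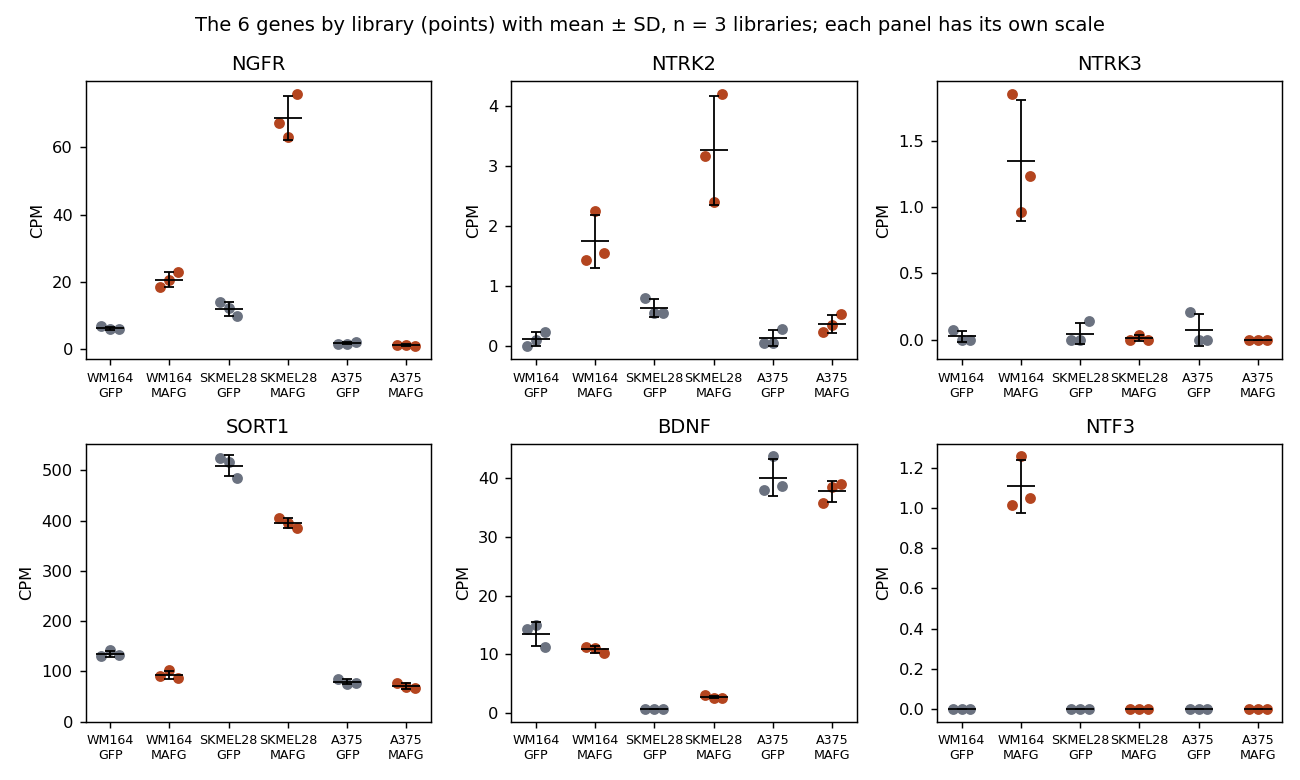
The normalized level in CPM (vertical axis, a scale for each panel) of the 6 genes is plotted for every library (points, grey for GFP and red for MAFG) with mean and SD of the 3 libraries of a condition (horizontal axis). NGFR and NTRK2 are highest in SKMEL28 MAFG libraries, NTRK3 and NTF3 stand above 1 CPM on average in WM164 MAFG libraries alone, and BDNF is highest in A375 cells.

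Levels without MAFG were compared between the lines, where most of all tested genes differed in each pair. Between GFP libraries, 4 of the 6 genes differed between WM164 and SKMEL28 cells (56.8% of 18767 tested genes), 3 between WM164 and A375 cells (71.5%) and 4 between SKMEL28 and A375 cells (68.6%). SKMEL28 cells had more NGFR than WM164 cells (WM164 minus SKMEL28 -0.94 on the log2 scale, adjusted p = 4.17e-05, edgeR), and WM164 cells had more than A375 cells (1.84, adjusted p = 1.73e-08, edgeR). SORT1 had the same order, at -1.92 (adjusted p = 2.62e-14, edgeR) and 0.77 (adjusted p = 1.58e-08, edgeR). BDNF had the reverse order of lines, with WM164 above SKMEL28 by 4.27 (adjusted p = 5.51e-15, edgeR) and below A375 by -1.57 (adjusted p = 5.2e-11, edgeR). NTRK2 was higher in SKMEL28 than in WM164 (-2.50, adjusted p = 0.00575, edgeR) and A375 cells (2.28, adjusted p = 0.00542, edgeR), while WM164 and A375 cells, with 9 and 14 counts over 3 libraries, did not differ by the test (-0.21, adjusted p = 0.83, edgeR). NTRK3 and NTF3 had at most 8 counts in any GFP library.

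Over all 6 conditions, mean NGFR fell in the order SKMEL28 MAFG, WM164 MAFG, SKMEL28 GFP, WM164 GFP, A375 GFP and A375 MAFG, and no neighbours in that order overlapped in CPM. In TPM, WM164 MAFG and SKMEL28 GFP did overlap. For NTRK2 the order began with the same 3 conditions, without overlap, and went on to A375 MAFG, A375 GFP and WM164 GFP, each overlapping with the next. BDNF fell from A375 GFP through A375 MAFG, WM164 GFP, WM164 MAFG and SKMEL28 MAFG to SKMEL28 GFP, and the conditions of A375 and those of WM164 overlapped within the line. SORT1 fell from SKMEL28 GFP through SKMEL28 MAFG, WM164 GFP, WM164 MAFG and A375 GFP to A375 MAFG, with overlap in CPM between the conditions of A375 alone, and in TPM also among those of WM164 and A375.

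Levels of different genes were compared per length, in deposited TPM. SORT1 made up 80.1% of the summed TPM of the 6 genes in WM164 GFP, 94.7% in SKMEL28 GFP and 52.1% in A375 GFP cells. With MAFG it made up 55.7%, 72.1% and 51.3%. NGFR went from 6.90% to 24.1% in WM164 and from 4.90% to 26.4% in SKMEL28 cells, and from 2.73% to 1.44% in A375 cells. In A375 cells the libraries of BDNF and SORT1 overlapped, at 8.15 ± 1.17 against 9.42 ± 1.64 TPM with GFP (SD, n = 3 libraries) and 7.17 ± 1.35 against 7.82 ± 1.09 TPM with MAFG. In WM164 MAFG cells NTRK3 (0.867 ± 0.428 TPM) and NTF3 (0.727 ± 0.107 TPM) were both above NTRK2 (0.167 ± 0.0551 TPM). The summed TPM of the 6 genes was 14.99 and 17.5 in WM164, 65.3 and 58.2 in SKMEL28 and 18.1 and 15.3 in A375 cells with GFP and MAFG.

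**Figure D3:**
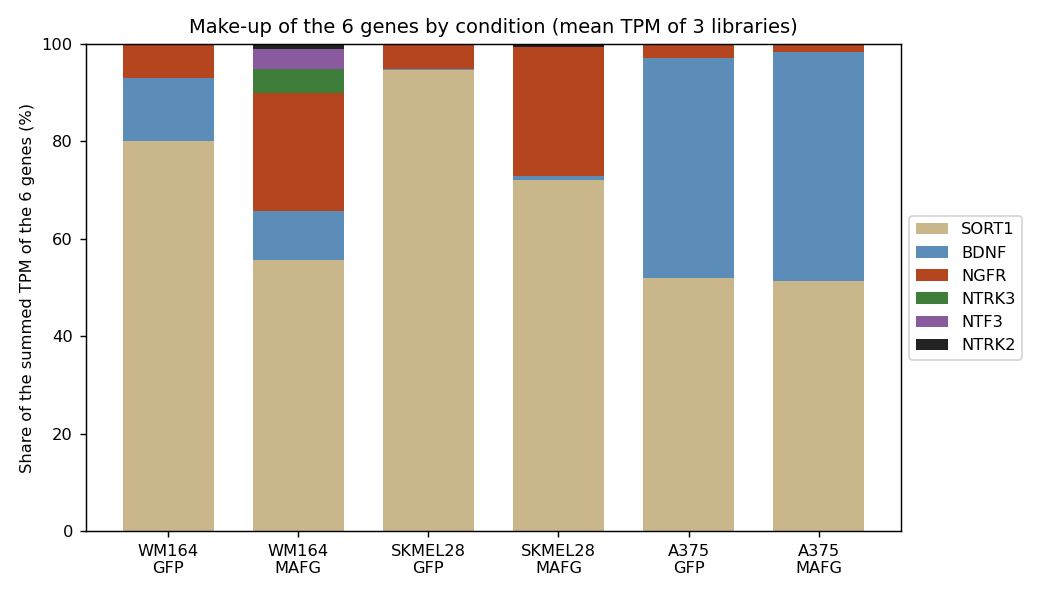
Stacked bars give the share of each gene in the summed TPM of the 6 genes (vertical axis, percent) for each condition (horizontal axis, mean of 3 libraries). SORT1 falls from 80.1% to 55.7% in WM164 and from 94.7% to 72.1% in SKMEL28 cells as the share of NGFR grows, and BDNF takes 45% and 47.0% in A375 cells.

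NGFR and sortilin form a receptor for the uncleaved neurotrophins, and the ratio of their transcripts shifted. In WM164 cells there were 9.31, 8.15 and 8.52 TPM of NGFR for every 100 TPM of SORT1 in the GFP libraries and 41.1, 38.0 and 52.5 in the MAFG libraries. SKMEL28 cells went from 6.48, 4.57 and 4.48 to 37.4, 32.5 and 40.4. A375 cells went the other way, from 3.63, 6.0 and 6.63 to 3.11, 3.09 and 2.19. There NGFR was at most 0.55 TPM in any library, and neither gene passed (adjusted p = 0.887 for NGFR and 0.974 for SORT1, edgeR). The groups did not overlap in any line, with a ratio 5.02-fold higher for WM164, 7.18-fold higher for SKMEL28 and 0.526 times that of GFP for A375 cells. How often the ratios of other gene pairs lie apart was not computed. An exact two-sided permutation test of 3 libraries against 3 gave p = 0.1 in each line, the smallest it allows.

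NTF4, another ligand gene of the NTRK2 receptor, was scarce and reached at most 5 counts in any library. Of 4 genes related to SORT1, 2 were tested in each line and 0 passed in any (edgeR).

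Lists of other genes around these receptors were read as counts beside the background percentages given above, with no test of the lists. Of 12 partners and adaptors of NGFR, 10 were tested in WM164 cells, with 2 higher and 5 lower, and 11 in SKMEL28 cells, with 4 higher and 2 lower. In A375 cells 0 of 11 passed. The median log2 change was -0.19 (WM164), 0.12 (SKMEL28) and -0.10 (A375), and NRADD was not analysed here. LINGO1, which encodes a co-receptor of NGFR at the cell surface, fell in SKMEL28 cells from 6.20, 5.95 and 6.80 CPM to 1.64, 0.466 and 1.20 CPM (log2 change -2.51, SE 0.31, adjusted p = 1.48e-05, edgeR). It also fell in WM164 cells, by a log2 change of -0.83 (adjusted p = 9.26e-06, edgeR), and all MAFG libraries of both lines were below the GFP libraries. BEX1, an adaptor gene of the NGFR receptor, rose in SKMEL28 cells from 1.13, 0.344 and 1.14 CPM to 2.10, 2.26 and 3.08 CPM (1.46, SE 0.39, adjusted p = 0.00971, edgeR). A375 cells had far more BEX1, at 50.04 ± 7.15 CPM with GFP and 45.1 ± 8.29 CPM with MAFG (SD, n = 3 libraries; adjusted p = 0.997, edgeR).

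Adaptors and effectors of the Trk receptors formed another list. Of its 15 genes, 14 were tested in WM164 cells, with 4 higher and 3 lower, 13 in SKMEL28 cells, with 1 higher and 5 lower, and 13 in A375 cells, with 0 that passed. None of those that passed had a fold change above 2. The median log2 change of the tested genes was 0.011 (WM164), -0.057 (SKMEL28) and -0.0059 (A375), against -0.00153, -0.008 and -0.000372 over all tested genes. GAB2, a docking protein chosen here after its values were seen, fell in WM164 (-0.82, adjusted p = 1.12e-09, edgeR) and SKMEL28 cells (-0.35, adjusted p = 0.000143, edgeR).

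Among 16 genes that cleave neurotrophin precursors or the NGFR protein, 13 were tested in WM164 cells, with 5 higher and 1 lower, and 13 in SKMEL28 cells, with 2 higher and 6 lower. The median log2 change was -0.063 (WM164), 0.071 (SKMEL28) and 0.045 (A375). PLAT, the tissue plasminogen activator, which starts the plasmin cascade that cleaves the BDNF precursor outside cells, was the 1 of 12 tested genes that passed in A375 cells. It rose in all 3 lines, from 163 ± 6.32 to 463 ± 22.9 CPM in WM164 (log2 change 1.51, adjusted p = 7.15e-13, edgeR), from 167 ± 1.44 to 245 ± 8.55 CPM in SKMEL28 (0.55, adjusted p = 1.69e-06, edgeR) and from 29.5 ± 1.26 to 46.7 ± 5.02 CPM in A375 cells (0.66, adjusted p = 0.0224, edgeR). PCSK5 and PCSK6 encode proprotein convertases, enzymes of the kind that cleave neurotrophin precursors inside cells. PCSK5 had 1, 1 and 3 counts in WM164 GFP and 269, 232 and 275 in WM164 MAFG libraries, 147-fold higher with an exact 95% interval of 62.8 to 455 for counting error alone (adjusted p = 1.07e-11, edgeR). PCSK6 had 172, 105 and 106 counts in SKMEL28 GFP and 8, 2 and 0 in SKMEL28 MAFG libraries (log2 change -5.31, SE 0.50, adjusted p = 1.06e-06, edgeR). PCSK5 passed the filter on low counts in WM164 cells through its MAFG libraries alone and had to be higher to be tested. PCSK6 passed it in SKMEL28 cells through its GFP libraries alone and had to be lower. The list counts that include these calls are therefore not read against the background.

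A last list held genes known to be induced by neurotrophins in neurons. Of 9 listed, 6 were tested in WM164 cells, with 4 higher and 0 lower, and 6 in SKMEL28 cells, with 0 higher and 4 lower. The median log2 change was 0.61 in WM164 and -0.80 in SKMEL28 cells, and the difference between the lines was not tested. EGR1 and EGR2, which encode immediate early transcription factors, were the genes that passed in both lines, higher in WM164 and lower in SKMEL28 cells. In WM164 cells ARC rose from 0.464, 0.398 and 0.830 CPM to 2.59, 1.92 and 1.70 CPM (log2 change 1.88, adjusted p = 0.00138, edgeR). VGF, a secreted neuropeptide precursor, rose from 845 ± 105 to 1793 ± 89.2 CPM (1.08, adjusted p = 2.31e-09, edgeR). EGR2 fell in SKMEL28 cells from 4.33, 4.08 and 5.90 CPM to 0.968, 0.466 and 0.563 CPM (-2.83, adjusted p = 4.73e-06, edgeR) and rose in WM164 cells (0.37, adjusted p = 0.0425, edgeR). In A375 cells 1 of 7 tested genes passed. This was GAP43, a growth cone protein, with 0 counts in the 3 GFP libraries and 62, 35 and 28 in the MAFG libraries, at least 12.9-fold higher (adjusted p = 0.0194, edgeR). GAP43 passed the filter on low counts there through its MAFG libraries alone and had to be higher to be tested. Its call is therefore not read against the background.

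**Figure D4:**
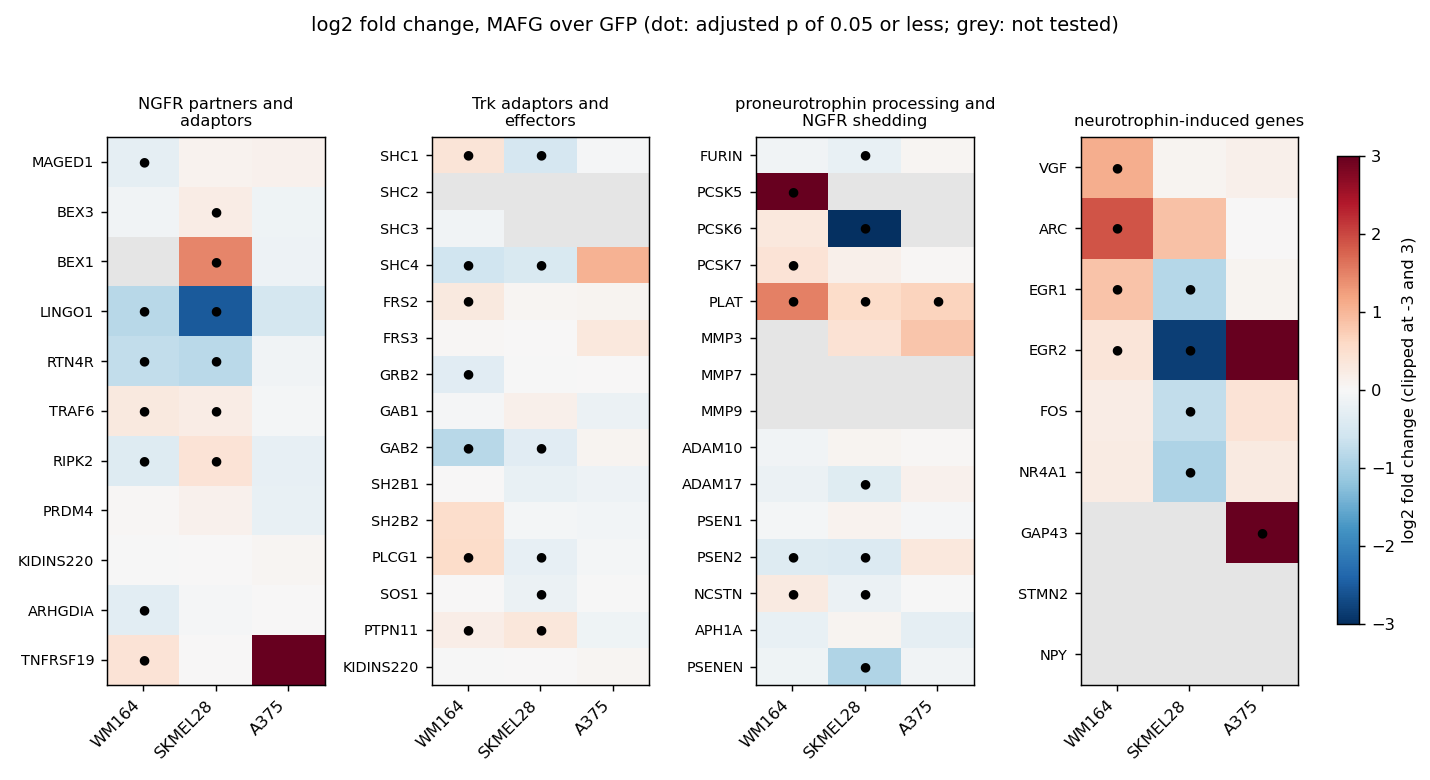
Colour gives the log2 change of MAFG over GFP (blue below 0, red above 0, clipped at -3 and 3) for genes of 4 lists (rows) in the 3 lines (columns), with a dot where the adjusted p was 0.05 or less and grey where the gene was not tested. Dots are frequent in WM164 and SKMEL28 cells, while A375 cells have 2, for PLAT and GAP43.

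The genes whose levels were most like those of each of the 6 genes were sought by Pearson's r of log2 CPM over the 18 libraries, as a description, since libraries of a line share their differences from other lines. NGFR was most like MBL2 (r = 0.957), SVIL-AS1 (0.955) and ATP6AP2 (0.952), and NTRK2 most like KYNU (0.883), PRSS23 (0.882) and CEMIP2 (0.879). BDNF was most like ARG2 (0.989), TRERF1 (0.989) and TLE4 (0.986), and SORT1 most like MTOR (0.995), TDRD7 (0.993) and EXOSC10 (0.989). NTRK3 was most like F13A1 (0.929), MOG (0.929) and SHISA7 (0.924), and NTF3 most like PTCHD1 (0.999), CACNG7 (0.998) and LRRC38 (0.997). Over the means of the 6 conditions the ranks differed, from 1 for CEMIP2, TRERF1 and LRRC38 to 31 for SHISA7. For NGFR, MBL2, SVIL-AS1 and ATP6AP2 had ranks of 23, 18 and 20 there. For NTF3 the values of r rest on 1 condition, since its other 5 were at 0. Those of NTRK3 rest mainly on the same condition, WM164 MAFG, at 1.35 CPM. Its means in the other conditions were at most 0.0695 CPM.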

How the data were processed

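The deposited counts are whole numbers without normalization. Per the methods, the authors used cutadapt for trimming, STAR for alignment to GRCh38 and featureCounts for the reads with a single alignment. The submitters' processing notes name cutadapt 1.8.1, STAR 2.7.7a, RSEM 1.3.0 and DESeq2. The TPM values deposited by the authors are scaled to the same sum in each library and rounded. The annotation release is not given in the sources used here. Replicates were not pooled.

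Counts were compared in R 4.3.3 with edgeR 4.0.16 (TMM normalization, filterByExpr, quasi-likelihood F test, Benjamini-Hochberg adjustment over all tested genes), on the 6 libraries of a line for MAFG against GFP and on all 18 for differences between lines. Genes passed at an adjusted p of 0.05 or less. CPM values use TMM over 18 libraries. A group with at most 3 counts in every library was at the floor; its ratio was taken from summed counts with an exact Clopper-Pearson 95% interval, or as a bound where all its counts were 0, and both cover counting error only. Alternatives used DESeq2 1.42.0, other size factors, other filters, a replicate block, limma 3.58.1 on log2(TPM + 1) or log2(TPM + 0.1) for genes reaching 1 TPM in at least 3 libraries, and each library left out. The fits were tested on simulated data. Figures used matplotlib 3.10.9. Positions and overlaps came from GENCODE.

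The 6 genes and the lists were chosen with earlier results of these data known. The text names the 6 genes, MAFG, overlapping genes, NTF4, up to 4 genes per list and line that passed with a fold change above 2 (smallest adjusted p first), and the 3 genes most like each of the 6 by Pearson's r. GAB2 and EGR1, and the values of list genes in lines where they did not meet this rule, were chosen after their values were seen. SOX10, DCT and other markers are named as values of the marker lists. Some listed genes are not reported here by name, though the counts and medians of lists include them.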

Additional observations from a re-analysis of the deposited data

Results flagged for a closer look

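The responses to MAFG of NGFR, BDNF, SORT1 and NTRK3 differed between at least 1 pair of lines. The test was that of the difference in the model of all 18 libraries (edgeR, adjusted over 18767 genes). Of all tested genes, 13.7% passed it between WM164 and SKMEL28, 9.21% between WM164 and A375 and 9.51% between SKMEL28 and A375 cells. For NGFR, the difference of the log2 fold changes was 2.52 for WM164 minus A375, 3.32 for SKMEL28 minus A375 and -0.80 for WM164 minus SKMEL28 cells, the last missing the threshold in 4 of 12 fits that left out 1 library. For BDNF it was -2.30 for WM164 minus SKMEL28 and 2.07 for SKMEL28 minus A375 cells. SORT1 differed by -0.38 between WM164 and A375 cells, and missed the threshold in 6 of 12 such fits. The NTRK3 response differed between WM164 and A375 cells with an adjusted p of 0.0121 (edgeR), which rests on 8 counts in 1 A375 GFP library and on groups at the floor. NTRK3 passed the filter on low counts through its WM164 MAFG libraries alone and had to be high there to be tested. On counts, MAFG itself did not pass the same test between any pair of lines (adjusted p = 0.221, 0.597 and 0.693, edgeR). In deposited TPM its rise was larger in each line, from 2.89 to 24.5 in WM164, 3.96 to 17.0 in SKMEL28 and 4.22 to 25.2 in A375 cells. The part of the MAFG level in these differences was not tested.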

How the results depend on the processing

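Of 518 single values recomputed under the alternatives, 290 of those with 1 library left out and 202 of the others kept their direction and their side of the threshold. In WM164 cells, 5 of the 6 genes passed, but 2 where every library had to reach 10 counts and 1 on each TPM scale, where 3 genes were left to test. On each TPM scale, 2 of 2 tested genes passed in SKMEL28 cells instead of 4. The difference of the responses between WM164 and SKMEL28 cells passed for 2 genes, but for 1 on the log2(TPM + 1) scale and for 1 to 3 with 1 library left out. That between WM164 and A375 cells passed for 1 gene instead of 3 on this scale, and that between SKMEL28 and A375 cells for 1 instead of 2. The sign turned on this scale for the SORT1 difference between WM164 and SKMEL28 cells (0.27) and the BDNF difference between WM164 and A375 cells (0.082), neither of which passed. The cause was not tested.

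Values of low counts turned with 1 library. The NTRK2 response in SKMEL28 minus A375 cells ranged from -0.36 (without the third A375 GFP library) to 1.22. The NTRK2 level in GFP cells of WM164 minus A375 ranged from -1.25 to 0.98, positive without the first WM164 GFP (0.37) or the third A375 GFP library (0.98). The NTRK3 level in GFP cells of SKMEL28 minus A375 ranged from -4.24 to 3.72, positive without the first SKMEL28 GFP (0.081) or the first A375 GFP library (3.72). The order of conditions in CPM matched that in TPM for all genes but NTRK3, with 2 of 6 places the same.

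Same-numbered MAFG and GFP libraries did not deviate together (correlations from -0.0397 to 0.0302), so they share only a number. With the replicate block, the difference between WM164 and SKMEL28 responses passed for 1 gene, NGFR missing the threshold (-0.81, adjusted p = 0.0721, edgeR), NTRK3 lost its difference between WM164 and A375 cells (adjusted p = 0.0629), and BDNF passed in WM164 cells (-0.31, adjusted p = 0.0442), as it did without a filter on low counts (adjusted p = 0.0343).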
